A study of Gallus gallus with 12 samples.

Results

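The 2 libraries titled OSR1 RNA were compared directly with the 2 titled OSR2 RNA, which makes 4 of the 12 libraries of the series. All 12 came from limb-bud mesenchyme of chick embryos (Lohmann Selected Leghorn, embryonic day 4.5), grown as high-density droplets of 10 µL for 5 days. The cells of the OSR1 group carried the retroviral vector RCAS-BP(A) with the OSR1 coding sequence (RCAS-BP(A)-OSR1-3F) and those of the OSR2 group the same vector with that of OSR2 (RCAS-BP(A)-OSR2-3F). The empty vector (Control, 2 libraries) and the vector with EGR1, KLF2 or KLF4 (2 libraries each) enter only where they are named. Each RNA extract pooled 6 cultures, and whether the 2 replicates of a group go back to different embryos is not stated, so a p-value here speaks of the spread among these libraries alone. Neither the species of the inserts nor the share of infected cells is given. The cultures mix cell types, so fewer cells of a type and less RNA per cell cannot be told apart.

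OSR1 and OSR2 are paralogous zinc-finger transcription factors, the vertebrate relatives of the Drosophila gene odd-skipped. In the limb they mark cells of irregular connective tissue, and in mouse both take part in joint formation. Limb mesenchyme in high-density culture condenses into cartilage nodules, in which SOX9 together with SOX5 and SOX6 switches on the genes of cartilage matrix. The direct comparison asks how far the paralogs differ in strength or in direction when the same cells carry them.

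The overexpressed genes matched the labels. OSR1 lay at 3214 and 3179 CPM (counts scaled for library size, with replicate 1 first here and below) in the OSR1 libraries and at 5.86 and 6.52 CPM in the OSR2 libraries, beside 4.92 ± 0.04 CPM (SD, n = 2) in Control. OSR2 lay at 2122 and 2077 CPM in the OSR2 libraries and at 20.6 and 26.5 CPM in the OSR1 libraries, beside 11.8 ± 2.3 CPM (SD, n = 2) in Control. The log2 difference of OSR1 over OSR2 libraries was 9.01 for the OSR1 gene (standard error, SE, 0.25, adjusted p = 9.2e-08) and -6.48 for the OSR2 gene (SE 0.19, adjusted p = 1.1e-07). The counts do not tell an insert from the endogenous gene, and the inserts' levels are not compared with each other, since the files give no gene lengths. All differences below are log2 OSR1 over OSR2 of 2 against 2 libraries, and adjusted p is from edgeR's quasi-likelihood test over 18979 genes unless DESeq2 is named.

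**Figure D1:**
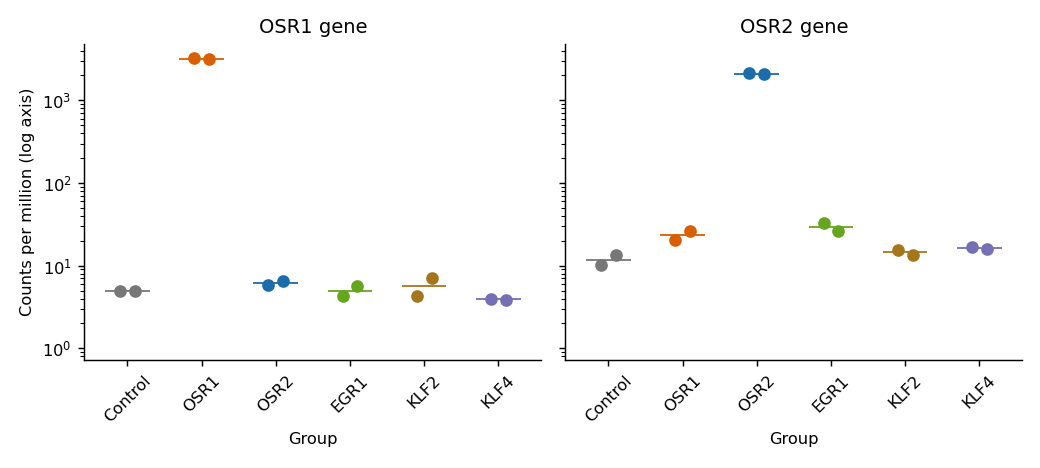
CPM (log axis) of the OSR1 gene and the OSR2 gene in the 12 libraries by group. Points are single libraries and lines the mean of 2. OSR1 is at 3214 and 3179 CPM in the OSR1 libraries and OSR2 at 2122 and 2077 CPM in the OSR2 libraries, far above all other libraries.

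The 4 libraries were of like depth, from 85072771 to 95874397 counts, and all expressed limb mesenchyme genes. PRRX1 lay between 487 and 560 CPM and PDGFRA between 355 and 414 CPM. The groups overlapped for all 9 mesenchyme markers, as they did for 14150 of all 18977 genes tested besides the inserts. The 2 OSR1 libraries stood further apart than the 2 OSR2 libraries. Of 11126 genes that averaged 5 CPM or more, 312 differed at least 2-fold between the OSR1 replicates and 24 between the OSR2 replicates. The respiratory chain gene NDUFB7 was at 3.30 CPM in OSR1 replicate 1, at 25.6 CPM in OSR1 replicate 2 and at 11.4 and 10.7 CPM in the OSR2 libraries, a gene chosen after its values were seen. The 5.8S ribosomal RNA, whose level can depend on how well poly(A) RNA was selected, was at 4970 and 2392 CPM in OSR1 and at 1520 and 2516 CPM in OSR2. Its part in the results below was not tested.

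By the median of a gene list, among lists chosen with earlier results of these data known, cartilage genes stood furthest apart between the paralogs. In 32 of 36 the estimate was higher in OSR1 libraries, up to 1.57 (FGFBP2) and 1.49 (MATN1). Elastic fibre genes had a median of -0.12 and estimates from -0.43 (MFAP4) to 0.51 (LOXL4, near 1 CPM and chosen after its values were seen), and other lists had medians as far toward OSR2. Apart from the inserts, no gene passed the main test. In all, 2 of 18979 genes passed the adjusted test (0.0105%), and these were OSR1 and OSR2 themselves. An unadjusted p under 0.05 was reached by 754 genes (3.97%), 521 of them higher in OSR1 (2.75%) and 233 higher in OSR2 (1.23%). DESeq2 called 35 of the 19113 genes to which it gave an adjusted p (0.183%). Of these, 34 were higher in OSR1 libraries, the OSR1 gene among them, and in the other direction there was the OSR2 gene alone. No gene symbol was given for 11 of the 35. The edgeR count rose when either OSR1 library was left out, and more so without replicate 1. Such a fit holds no spread between OSR1 replicates, so it does not show on which library the count rests. Of the 107 called besides the inserts without OSR1 replicate 1, 91 had no gene symbol. Among the called genes, 93 were also tested with all 4 libraries. The groups overlapped in 40 of the 93 (14150 of all 18977 genes), and both OSR1 libraries lay above in 53 (12.2% of all genes). The calls and these counts share libraries, so the counts are a description.

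The typical difference between the paralogs was smaller than that between replicates. Over the 11126 genes, log2 OSR1 over OSR2 had an SD of 0.15, beside 0.35 for the difference between the OSR1 replicates and 0.18 for that between the OSR2 replicates. The first of these compares means of 2 libraries, which narrows it. In 2324 of all tested genes both OSR1 libraries lay above both OSR2 libraries (12.2%), and in 2505 both OSR2 libraries lay above (13.2%). The tails were less even. Of the 11126 genes, counting those whose groups did not overlap, 187 were higher in OSR1 and 166 higher in OSR2 by at least 0.25 on the log2 scale. At 0.5 there were 44 and 10, at 0.75 there were 24 and 2, and at 1 there were 21 and 0. Cartilage genes made up 18 of the 187, 10 of the 44, 4 of the 24 and 2 of the 21 on the OSR1 side. On the OSR2 side they made up 0 at each size. Of all 18977 genes tested besides the inserts, 36 were in the cartilage lists, some of them under 5 CPM. Most of the 21 carried no gene symbol and were highest in OSR1 replicate 2. The uncharacterised entry uPROT_000052, for one, was at 23.4 and 219 CPM in OSR1 and 18.8 and 20.6 CPM in OSR2. The 4 with a symbol were MATN1, NRIP3, KCNA3 and COL9A1, and each of these was higher in OSR1 replicate 1.

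**Figure D2:**
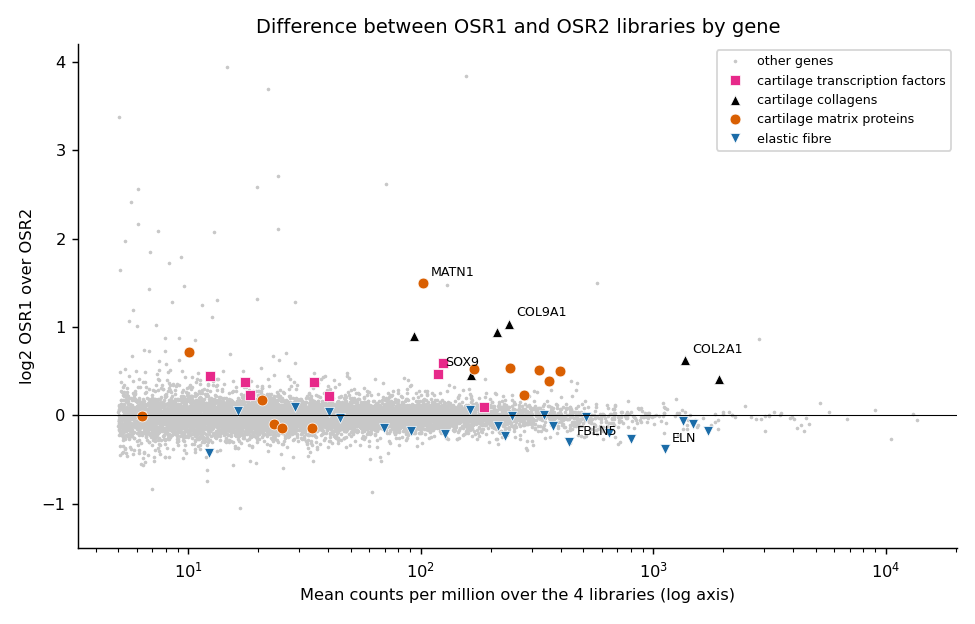
Log2 difference of OSR1 over OSR2 libraries against mean CPM (log axis) for genes that averaged 5 CPM or more, without the 2 overexpressed genes. Each dot is a gene. Cartilage genes reach 1.49 (MATN1) and elastic fibre genes lie mostly below 0, down to -0.43.

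The 39 gene lists and their members were chosen with earlier results of these data known, so their rank is a description. Of the 39, the 3 cartilage lists had the largest median differences, each toward OSR1. These lists, of transcription factors, collagens and other matrix proteins, held 41 genes, of which 37 were in the files and 36 had enough counts to be tested. Both OSR1 libraries lay above both OSR2 libraries in 29 of the 36 (80.6%, beside 12.2% of all genes), both OSR2 libraries lay above in 3 (MATN2, COMP and CILP), and the groups overlapped in 4 (TRPS1, COL11A2, CILP2 and CHADL). The estimate was higher in OSR1 in 32. None passed the adjusted test in edgeR, and 23 had an unadjusted p under 0.05, all of them higher in OSR1 (2.75% of all genes). In DESeq2 8 passed (0.183% of all genes, in either direction and with the inserts). The median log2 difference was 0.45, a fold of 1.37, beside -0.01 for all genes tested. Summed over the 36, cartilage genes took 8326 and 7084 CPM in OSR1 and 5527 and 5263 CPM in OSR2, beside 24308 and 25958 CPM in Control. Among Control, OSR1 and OSR2 libraries, the Control sums were thus the highest and the OSR2 sums the lowest.

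The list of cartilage transcription factors also holds WWP2, which is not one. All 10 members tested had a higher estimate in OSR1, in 9 both OSR1 libraries lay above (12.2% of all genes), and the median log2 difference was 0.40. SOX9, which starts the cartilage programme, lay at 121 and 155 CPM in OSR1 and at 106 and 93.6 CPM in OSR2 (0.47, SE 0.14, adjusted p = 0.91). Its partners had smaller estimates. SOX6 lay at 5.11 and 4.87 CPM against 4.38 and 3.07 CPM (0.42, SE 0.17) and SOX5 at 47.6 and 39.6 CPM against 39.3 and 35.2 CPM (0.22, SE 0.11). For SOX5 the lower OSR1 library was all but level with the higher OSR2 library. WWP2, a ubiquitin ligase whose gene is a SOX9 target, lay at 170 and 131 CPM against 99.8 and 99.97 CPM (0.59, SE 0.13, edgeR adjusted p = 0.86, DESeq2 adjusted p = 0.014). The others with separate groups were NFATC2 (0.45), SOX8 (0.38), BARX2 (0.37), NKX3-2 (0.23) and FOXA2 (0.74), the last below 0.5 CPM in all 4 libraries. TRPS1, a repressor in the growth plate, overlapped at 182 and 204 CPM against 189 and 172 CPM.

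Cartilage collagens differed more than the transcription factor list, with a median of 0.73 (1.66-fold), which is the estimate of COL11A2 itself. Each of the 7 tested had a higher estimate in OSR1, and in 6 both OSR1 libraries lay above (12.2% of all genes). COL2A1, which encodes the main fibril collagen of cartilage, lay at 1704 and 1624 CPM in OSR1 and at 1116 and 1039 CPM in OSR2 (0.63, SE 0.18, adjusted p = 0.91), and each pair of replicates was close. The 3 chains of collagen IX, which coats those fibrils, were wider apart. COL9A1 lay at 408 and 238 CPM against 168 and 146 CPM (1.04, SE 0.21, edgeR adjusted p = 0.64, DESeq2 adjusted p = 0.0005) and COL9A3 at 355 and 206 CPM against 154 and 137 CPM (0.95, SE 0.20, edgeR adjusted p = 0.79, DESeq2 adjusted p = 0.0017). COL9A2 lay at 90.7 and 154 CPM against 68.2 and 63.2 CPM (0.89, SE 0.26). OSR1 replicate 1 was thus the higher library for COL9A1 and COL9A3 and the lower for COL9A2. Collagen XI, inside the same fibrils, showed both patterns. COL11A1 lay at 2393 and 1966 CPM against 1656 and 1624 CPM (0.41, SE 0.10, DESeq2 adjusted p = 0.038). COL11A2 lay at 2.23 and 7.44 CPM in OSR1, on either side of 3.20 and 2.61 CPM in OSR2. COL27A1, a fibrillar collagen of the growth plate, lay at 214 and 168 CPM against 138.8 and 139.4 CPM (0.46, SE 0.13).

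Of the other cartilage matrix genes, 19 were tested and the median was 0.39. Both OSR1 libraries lay above in 14 (12.2% of all genes) and both OSR2 libraries in 3 (13.2%). MATN1, which encodes the adaptor protein matrilin-1, lay at 189 and 114 CPM in OSR1 and at 57.7 and 49.9 CPM in OSR2, beside 947 ± 42 CPM (SD, n = 2) in Control. Its difference was 1.49 (SE 0.22, 2.81-fold), with an adjusted p of 0.22 in edgeR and 1.2e-08 in DESeq2. The DESeq2 value and the edgeR value differ over the same counts, and no other cartilage gene that averaged 5 CPM or more differed as much. MATN4 of the same family lay at 429 and 377 CPM against 303 and 311 CPM (0.39, SE 0.17), while MATN2 lay at 34.3 and 30.4 CPM against 36.9 and 34.5 CPM (-0.14, SE 0.08). ACAN, the core protein of the large aggregating proteoglycan, lay at 446 and 310.3 CPM against 271 and 256 CPM (0.52, SE 0.17, adjusted p = 0.96). HAPLN1, which links aggrecan to hyaluronan, lay at 212 and 188 CPM against 143 and 135 CPM (0.53, SE 0.13, adjusted p = 0.89). Both of these components of the aggrecan aggregate had every OSR1 library above every OSR2 library. CYTL1, a secreted cytokine-like protein of cartilage, lay at 322 and 249 CPM against 203 and 192 CPM (0.53, SE 0.13, DESeq2 adjusted p = 0.029). LECT1, which encodes chondromodulin, an inhibitor of vessel growth in cartilage, lay at 527 and 401 CPM against 345 and 312 CPM (0.50, SE 0.12, DESeq2 adjusted p = 0.048).

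Several members were scarce in all 4 libraries. FGFBP2 lay at 8.49 and 4.22 CPM against 2.30 and 1.97 CPM (1.57, SE 0.29, DESeq2 adjusted p = 5e-06), and the proteoglycan gene EPYC at 14.9 and 10.2 CPM against 8.10 and 7.22 CPM (0.71, SE 0.19). C2orf82, VIT, MATN3 and CLEC3A stayed under 2.1 CPM in each library and had differences of 1.07, 0.89, 0.33 and 0.38. The rest with separate groups, CHAD (0.36) and PRELP (0.23), pointed the same way by estimate. Cartilage genes did not all follow. COMP, a protein of cartilage and tendon matrix, lay at 22.3 and 22.8 CPM against 23.5 and 24.9 CPM (-0.10, SE 0.14), and CILP at 25.1 and 23.0 CPM against 25.8 and 27.3 CPM (-0.14, SE 0.11).

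**Figure D3:**
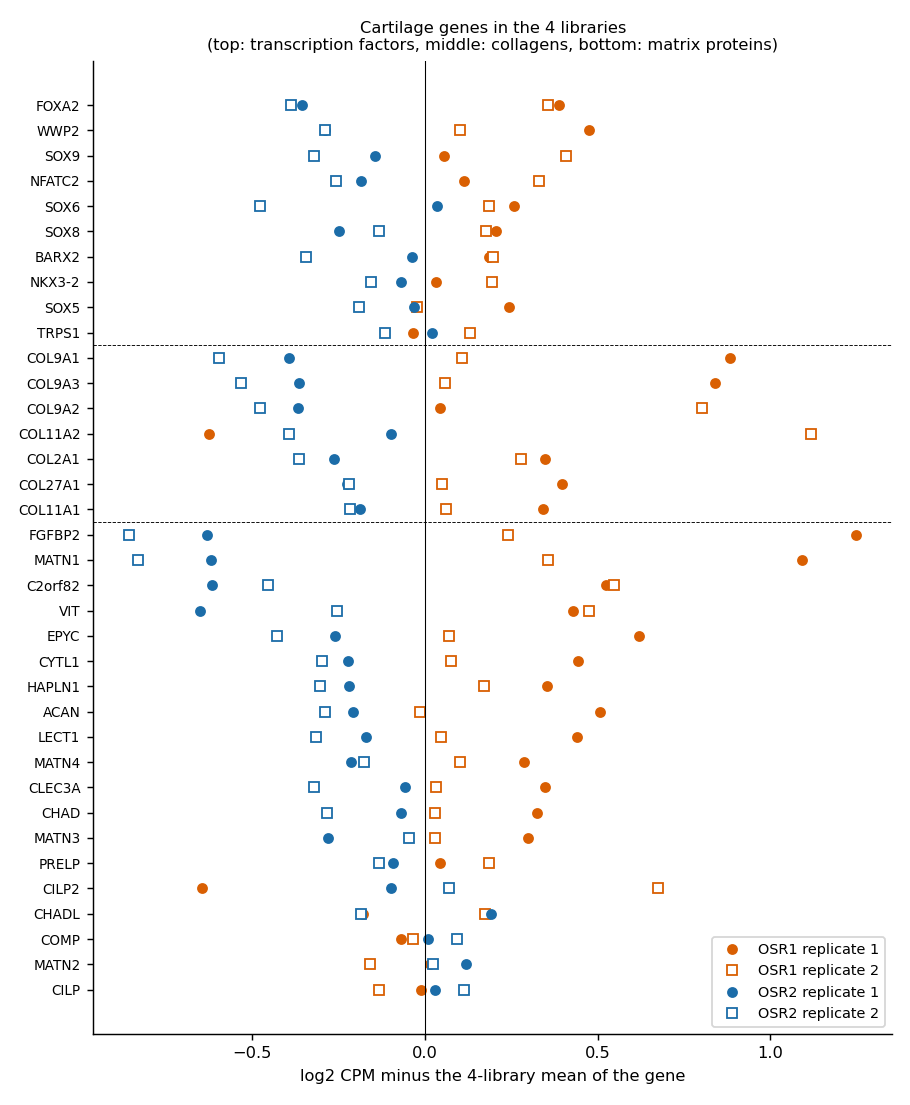
Log2 CPM of each of the 36 tested cartilage genes minus its mean over the 4 libraries, for OSR1 (orange) and OSR2 (blue), replicate 1 filled and replicate 2 open. In 29 genes both orange symbols lie to the right of both blue ones, and the filled orange circle is often the farthest right.

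The size of the cartilage difference depended on single libraries. OSR1 replicate 1 was the highest library in 21 of the 36 genes and OSR1 replicate 2 in 11, and OSR2 replicate 2 was the lowest in 24. Over all 18977 genes tested besides the inserts these counts were 4925, 5018 and 4443. The remaining OSR1 library lay above both OSR2 libraries in 32 genes without replicate 1 (32.8% of all genes) and in 29 without replicate 2 (31.8% of all genes). MATN1 had an estimate of 1.08 without OSR1 replicate 1 and of 1.81 without OSR1 replicate 2. In the same order, COL9A1 was at 0.60 and 1.38, COL9A3 at 0.50 and 1.29, and FGFBP2 at 0.98 and 1.99. COL9A2 and SOX9 went the other way, at 1.22 and 0.64 without OSR1 replicate 1 and at 0.46 and 0.29 without OSR1 replicate 2. For COL11A2 the OSR1 library left without replicate 2 lay below both OSR2 libraries. In these fits the lone OSR1 library is assumed to vary like the other groups, so only the estimates are given here.

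Enzymes that build and sulfate the glycosaminoglycan chains of cartilage proteoglycans leaned the same way by smaller amounts. Of 25 tested, 21 had a higher estimate in OSR1, both OSR1 libraries lay above in 12 (12.2% of all genes) and both OSR2 libraries in 1 (13.2%), and the median was 0.08. CHST11, a chondroitin sulfotransferase, lay at 43.0 and 44.6 CPM in OSR1 and at 32.4 CPM in both OSR2 libraries (0.44, SE 0.09, edgeR adjusted p = 0.64, DESeq2 adjusted p = 0.012). PAPSS2, which makes the sulfate donor, lay at 60.4 and 52.6 CPM against 44.2 and 40.1 CPM (0.42, SE 0.12). The chain-initiating enzyme CSGALNACT1 lay at 71.8 and 57.2 CPM against 55.0 and 51.8 CPM (0.27, SE 0.10). HS3ST3B1, a heparan sulfate sulfotransferase outside that list, lay at 56.3 and 56.4 CPM against 41.6 and 39.0 CPM (0.48, SE 0.09, DESeq2 adjusted p = 0.00087).

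Genes of hypertrophic cartilage and bone, the later stage, gave no common direction. Of 21 tested, 3 had both OSR1 libraries above (12.2% of all genes) and 2 both OSR2 libraries (13.2%), with a median of -0.01. RUNX2, the transcription factor of hypertrophy and bone, lay at 11.8 and 12.7 CPM in OSR1 and at 9.69 and 9.12 CPM in OSR2 (0.38, SE 0.09, adjusted p = 0.86). DLX5, a homeodomain factor of skeletal development, lay at 15.8 and 17.9 CPM against 13.7 and 14.3 CPM (0.27, SE 0.16). SOST, which encodes the WNT antagonist sclerostin and was chosen after its values were seen, lay at 2.85 and 2.26 CPM against 3.603 and 3.071 CPM (-0.39).

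Ligands of the BMP and GDF family differed by member. GDF10 lay at 13.3 and 10.2 CPM in OSR1 and at 7.14 and 5.69 CPM in OSR2 (0.87, SE 0.13, edgeR adjusted p = 0.22, DESeq2 adjusted p = 5e-06). GDF3 lay at 12.1 and 10.2 CPM against 8.32 and 8.13 CPM (0.44, SE 0.13), and BMP6 at 10.3 and 15.4 CPM against 9.27 and 10.1 CPM (0.41, SE 0.18). GDF2, which encodes BMP9 and was chosen after its values were seen, lay at 0.99 and 0.83 CPM against 0.37 and 0.30 CPM (1.45, SE 0.20, DESeq2 adjusted p = 9.4e-05). Over the 17 ligands tested, 5 had both OSR1 libraries above (12.2% of all genes) and 1 had both OSR2 libraries above (13.2%), yet 11 had a higher estimate in OSR2 and the median was -0.09. The BMP antagonist GREM1 was lower in OSR1 by estimate. It lay at 26.5 and 30.6 CPM in OSR1 and at 37.3 and 36.3 CPM in OSR2 (-0.37, SE 0.11, adjusted p = 0.91). BMPR1B, a type I BMP receptor of early cartilage, was the reverse, at 15.4 and 11.98 CPM against 10.4 and 11.1 CPM (0.35, SE 0.14). Of the 34 receptors, antagonists and targets, 6 had OSR1 above (12.2% of all genes) and 5 OSR2 above (13.2%), with a median of 0.00.

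Among receptors of other pathways, FGFR3, which restrains growth-plate chondrocytes, lay at 39.3 and 30.1 CPM in OSR1 and at 23.1 and 22.8 CPM in OSR2 (0.60, SE 0.15, edgeR adjusted p = 0.91, DESeq2 adjusted p = 0.072). The ligand FGF7 was lower in OSR1, at 23.6 and 23.8 CPM against 35.2 and 30.5 CPM (-0.47, SE 0.17, adjusted p = 1). Of the 22 FGF ligands and receptors tested, both OSR1 libraries lay above in 7 (12.2% of all genes), FGFR3 among them. Both OSR2 libraries lay above in 5 (13.2%), FGF7 among them. The estimate was higher in OSR1 in 10 and in OSR2 in 12, from -0.89 to 0.60, with a median of -0.02. PTCH1, both receptor and target of Hedgehog signalling, lay at 75.6 and 69.5 CPM against 54.3 and 54.5 CPM (0.42, SE 0.09, edgeR adjusted p = 0.86, DESeq2 adjusted p = 0.051), while DISP1, which releases Hedgehog ligands, lay at 72.9 and 70.8 CPM against 81.1 and 85.6 CPM (-0.21, SE 0.08). Of the 14 Hedgehog and PTHLH genes tested, both OSR1 libraries lay above in 1 (12.2% of all genes) and both OSR2 libraries in 2 (13.2%). These were PTCH1, DISP1 and the co-receptor BOC (-0.13), and the groups overlapped in the other 11. DACT2, an intracellular regulator of WNT and TGF-beta signalling, lay at 55.7 and 54.7 CPM against 42.5 and 38.8 CPM (0.44, SE 0.07, edgeR adjusted p = 0.32, DESeq2 adjusted p = 0.00012).

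Retinoic acid genes gave no difference that passed the test, and the groups overlapped in 8 of the 17 tested. The estimate was higher in OSR2 in 13 and in OSR1 in 4, with a median of -0.08. CYP26B1, which degrades retinoic acid, lay at 86.7 and 88.7 CPM in OSR1 and at 67.0 and 76.6 CPM in OSR2 (0.29, SE 0.09, adjusted p = 0.93). CRABP2, which carries it to the nucleus, lay at 41.1 and 42.3 CPM against 49.1 and 58.0 CPM (-0.36, SE 0.12, adjusted p = 0.92), and ALDH1A3, which makes it, at 291 and 330 CPM against 378 and 363 CPM (-0.25, SE 0.11, adjusted p = 1). Both OSR2 libraries lay above in 6 (13.2% of all genes) and both OSR1 libraries in 3 (12.2%). The guidance ligand SEMA3E lay at 8.08 and 6.00 CPM against 4.82 and 4.02 CPM (0.67, SE 0.16, DESeq2 adjusted p = 0.04995). It was the 1 gene that DESeq2 called (0.183% of all genes) in a guidance list of 51. In that list 5 had OSR1 above (12.2% of all genes) and 5 OSR2 above (13.2%).

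Genes of elastic fibres leaned toward OSR2 by estimate. Of 23 tested, 17 had a higher estimate in OSR2, both OSR2 libraries lay above in 11 (13.2% of all genes) and both OSR1 libraries in 1 (12.2%), and 4 had an unadjusted p under 0.05, all higher in OSR2 (1.23% of all genes). None passed the adjusted test in edgeR or DESeq2, and the median was -0.12 (0.92-fold). FBLN5, which guides elastin assembly, lay at 382 and 398 CPM in OSR1 and at 497 and 462 CPM in OSR2 (-0.30, SE 0.06, edgeR adjusted p = 0.79, DESeq2 adjusted p = 0.067), beside 126 CPM in Control. ELN, which encodes elastin, lay at 767 and 1175 CPM against 1208 and 1324 CPM (-0.38, SE 0.23). MFAP4, a microfibril-associated protein, lay at 9.38 and 11.6 CPM against 12.9 and 15.3 CPM (-0.43, SE 0.35). ELN was thus much lower in OSR1 replicate 1 than in the other 3 libraries, while FBLN5 was alike in both replicates. OSR1 replicate 1 was also low for EMILIN1, at 8.94 CPM beside 50.7, 26.8 and 29.0 CPM in OSR1 replicate 2 and the OSR2 libraries, a gene chosen after its values were seen. Over the 23 genes the median of OSR1 replicate 1 minus replicate 2 was -0.26, beside -0.12 between the groups. The remaining OSR1 library lay below both OSR2 libraries in 19 of 23 without OSR1 replicate 2 (35.1% of all genes). Without OSR1 replicate 1 it lay below both in 13 (34.4%). It lay above both in 3 (31.8%) and 7 (32.8%), respectively. The median between the groups was -0.05 to -0.25 over the alternatives tried.

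The genes with the smallest p on the OSR2 side differed by less than those on the OSR1 side. The 12 of them spanned -0.25 (RND3) to -0.60 (NEFM, a neurofilament subunit), beside 0.42 (FAM101A) to 1.49 (MATN1) for the 12 on the OSR1 side, and edgeR adjusted p was between 0.79 and 0.91 for the OSR2 side. SVEP1, a secreted adhesion protein, lay at 82.5 and 87.4 CPM in OSR1 and at 106 and 109 CPM in OSR2 (-0.34, SE 0.09). GEM, a small GTPase, lay at 22.0 and 20.5 CPM against 26.9 and 30.7 CPM (-0.44, SE 0.10). NEFM lay at 17.5 and 23.2 CPM against 33.0 and 28.6 CPM. The rest were PRSS23, CRISPLD1, MMP23B, TNFSF15, ABCA8, SLC4A11 and ANO6. On the OSR1 side, besides genes given above, the potassium channel gene KCNA3 lay at 8.34 and 6.71 CPM against 4.18 and 2.98 CPM (1.07, SE 0.22, DESeq2 adjusted p = 0.00071), and NRIP3 at 23.1 and 14.7 CPM against 8.43 and 6.83 CPM (1.31, SE 0.24, edgeR adjusted p = 0.50, DESeq2 adjusted p = 7.8e-06). FAM101A (0.42), a regulator of the actin cytoskeleton also known as RFLNA, TRIM67 (0.74) and the glycosyltransferase MGAT4A (0.50) completed the 12.

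The level in Control lay on the same side of both groups in each of these 24 genes. For all 12 that were higher in OSR1 the Control mean was above both groups, so that OSR1 stood between Control and OSR2, as NRIP3 did with 272 CPM in Control. For all 12 that were higher in OSR2 the Control mean was below both, again with OSR1 in between. Given the direction of the difference, that middle place follows from the side on which Control lay. Among all tested genes besides the inserts, Control was above both in 1356 of 2323 with both OSR1 libraries above. It was below both in 1452 of 2504 with both OSR2 libraries above. At 0.25 or more on the log2 scale, with a mean of at least 5 CPM, these counts were 144 of 187 and 148 of 166. Among the 36 cartilage genes the OSR1 mean was the nearer to Control in 32 (88.9%). The same held for 64.8% of all tested genes with both OSR1 libraries above and 65.0% of those with both OSR2 libraries above. For the 187 and 166 genes that differed by at least 0.25 it was 81.8% on the OSR1 side and 91.0% on the OSR2 side, so the cartilage share lay between these. These counts share the OSR libraries with the difference itself and are given as a description.

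**Figure D4:**
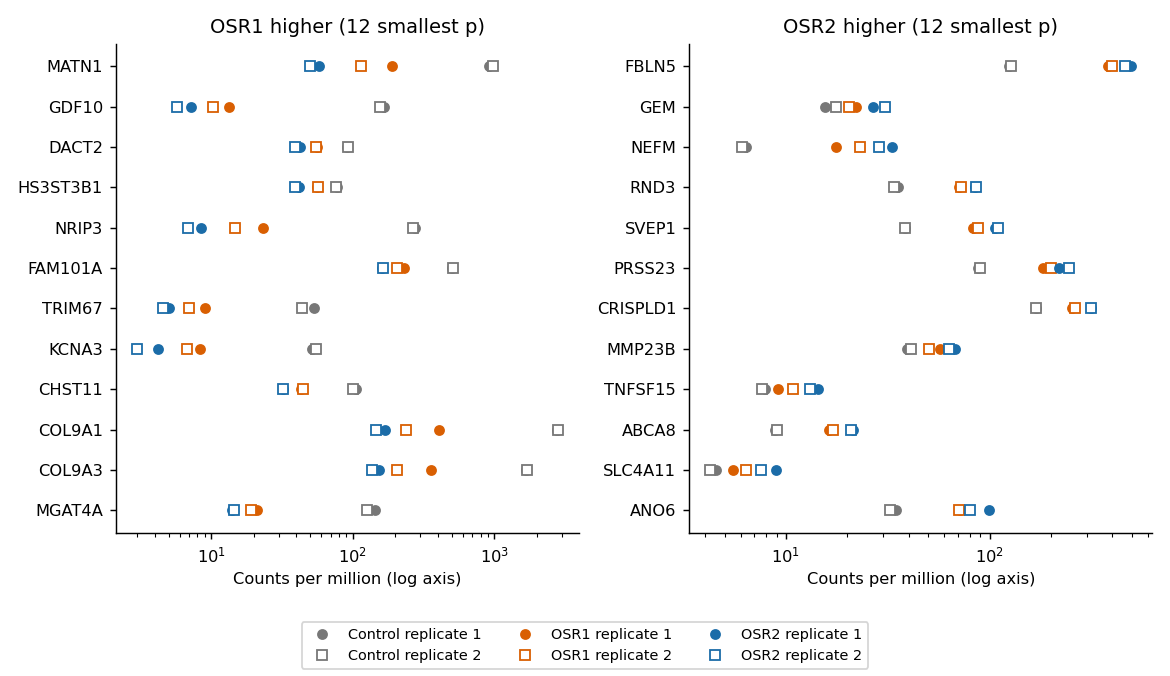
CPM (log axis) in single libraries of Control (grey), OSR1 (orange) and OSR2 (blue) for the 12 genes with the smallest p in each direction, by the rule for named genes. Filled circles are replicate 1 and open squares replicate 2. In all 24 genes Control lies beyond OSR1, which puts OSR1 between Control and OSR2.

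Most lists stood near 0. Of 39 lists, 28 had a median within 0.1 of 0, 4 lay beyond it toward OSR1 (the 3 cartilage lists and 5 erythroid genes) and 7 toward OSR2 (elastic fibre, smooth muscle, interferon response, chemokine, macrophage, epidermis and retroviral), and besides the overexpressed genes no list held a gene that passed edgeR's adjusted test. Smooth muscle contractile genes had a median of -0.11, with both OSR2 libraries above in 7 of 22 (13.2% of all genes) and both OSR1 libraries in 1 (12.2%). ACTG2, a smooth muscle actin, lay at 198 and 297 CPM in OSR1 and at 305 and 346 CPM in OSR2 (-0.40, SE 0.22). As with elastin, OSR1 replicate 1 was the lowest. Without OSR1 replicate 2, the remaining OSR1 library lay below both OSR2 libraries in 19 of the 22 (35.1% of all genes), and without replicate 1 in 7 (34.4%). Interferon response genes had a median of -0.12, with both OSR2 libraries above in 12 of 24 (13.2% of all genes) and both OSR1 libraries in 1 (12.2%). The antiviral gene RSAD2, chosen after its values were seen, lay at 0.11 and 0.09 CPM against 0.39 and 0.45 CPM (-2.001), a level of few counts. Retroviral entries, whose counts mix the vector and endogenous copies, had all 8 estimates higher in OSR2 and a median of -0.11, and gag lay at 3947 and 4434 CPM against 4916 and 4562 CPM (-0.18, SE 0.12). Their part in the interferon values was not tested.

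Lists of other cell types were read for what the cultures held. Summed macrophage markers lay at 81.1 and 86.7 CPM in OSR1 and at 86.1 and 89.1 CPM in OSR2. Of 16 tested, 12 had a higher estimate in OSR2. Both OSR2 libraries lay above in 5 (13.2% of all genes) and both OSR1 libraries in 1 (12.2%). Summed endothelial markers lay at 534 and 499 CPM against 499 and 528 CPM. Of 18 tested, 12 had a higher estimate in OSR2, with both OSR2 libraries above in 3 (13.2%) and both OSR1 libraries in 2 (12.2%). Epidermal markers lay at 133 and 239.5 CPM in OSR1 and at 153 and 258 CPM in OSR2, apart within each group. The groups overlapped in all 18 tested, as they did in 14150 of all 18977 genes. Neural, glial and pigment cell markers were at 114 and 136 CPM against 143 and 139 CPM. Both OSR2 libraries lay above in 6 of 18 (13.2% of all genes) and both OSR1 libraries in 3 (12.2%). Among the 6 were NEFM, at 17.5 and 23.2 CPM against 33.0 and 28.6 CPM, and NEFL, at 16.6 and 21.6 CPM against 28.2 and 22.2 CPM. NGFR was among the 3, at 18.5 and 21.9 CPM against 15.4 and 17.5 CPM. The estimate was higher in OSR1 in 8 and in OSR2 in 10, from -0.65 to 1.37, with a median of -0.04. Erythroid markers stayed under 5 CPM in all 4 libraries. Whether these cells took part in any difference was not tested.

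Cell cycle genes had a median of 0.05, with a slightly higher estimate in OSR1 in 39 of 46 and in OSR2 in 7. Both OSR1 libraries lay above in 13 (12.2% of all genes) and both OSR2 libraries in 1 (13.2%), the groups overlapped in 32, and 0 genes had an unadjusted p under 0.05 in edgeR or an adjusted p under 0.05 in DESeq2. CCND3, a D-type cyclin, lay at 18.2 and 17.5 CPM in OSR1 and at 11.8 and 16.9 CPM in OSR2 (0.32, SE 0.16). Of enzymes of serine and cysteine synthesis, CBS lay at 57.6 and 56.4 CPM against 49.2 and 43.8 CPM (0.29, SE 0.07), and CTH and PSAT1 were at 0.26 and 0.25, each with an unadjusted p under 0.05 and separate groups. These 3 were the only genes of the amino acid stress list with an unadjusted p under 0.05 in edgeR (2.75% of all genes toward OSR1). The whole list of 21 had 3 genes with OSR1 above (12.2% of all genes) and 2 with OSR2 above (13.2%). Its estimates were higher in OSR1 in 10 and in OSR2 in 11. They ranged from -1.05 to 0.29, with a median of -0.01. HOX genes (median -0.01), WNT signalling genes (-0.03), Notch genes (-0.01) and TGF-beta genes (-0.06) had medians no larger than those between the replicates of OSR1. Limb patterning transcription factors had a median of 0.03, and OSR1 replicate 2 was the highest library in 30 of 47 (5018 of all 18977).

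**Figure D5:**
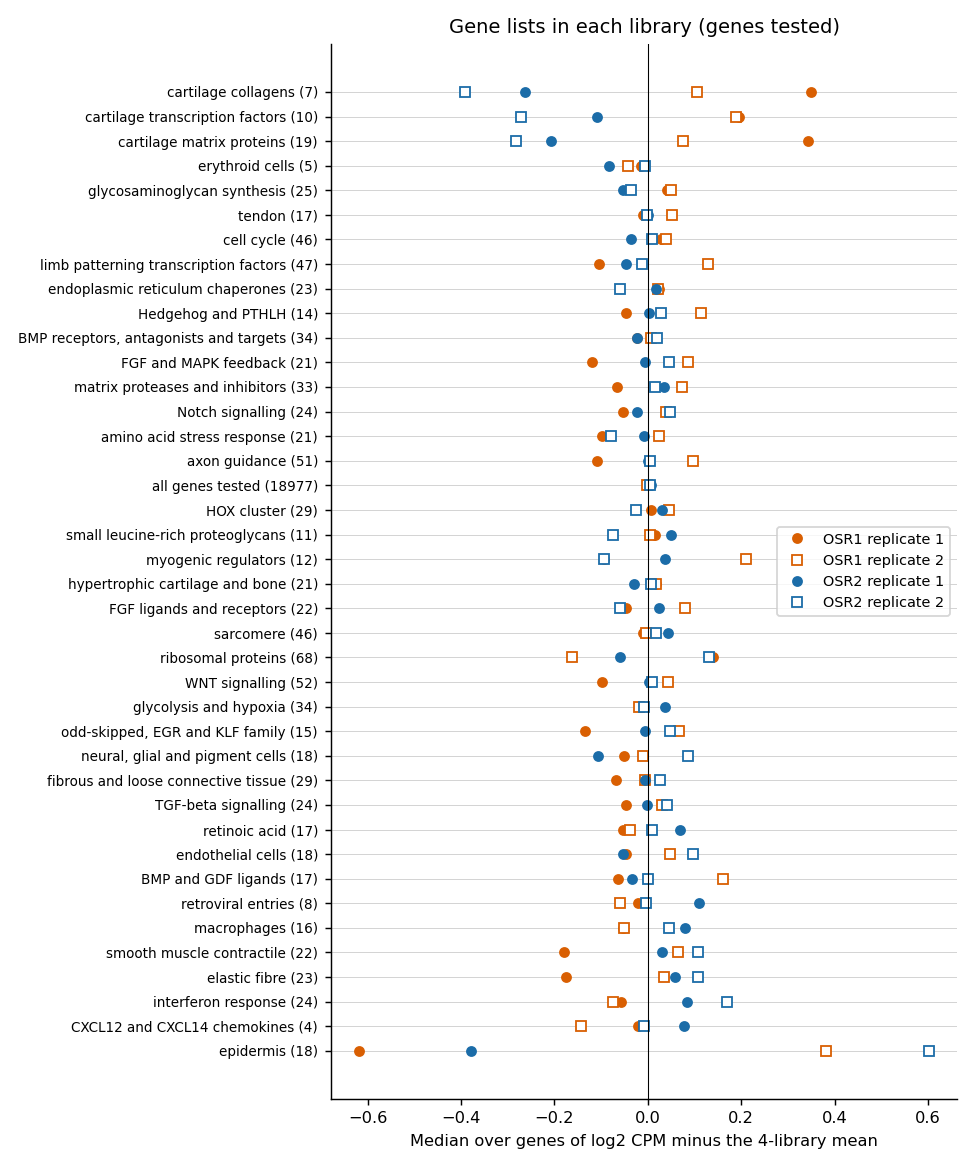
Median over each list's tested genes of log2 CPM minus the gene's 4-library mean, for the 4 libraries (OSR1 orange, OSR2 blue, replicate 1 filled circles, replicate 2 open squares), with the number of genes in parentheses. The 3 cartilage lists have both OSR1 libraries to the right of both OSR2 libraries, and epidermis is wide apart within both groups.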

How the data were processed

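Per the labels' protocols, RNA was made into strand-specific TruSeq poly(A) libraries and sequenced as 50-bp read pairs (mean insert 150 bp). The deposited values are raw counts per gene and library, 1 count table for each of the 12 libraries. Among tools, featureCounts, TopHat2, SAMtools and DESeq2 appear in the submitters' processing notes, with the build galGal4. Versions, annotation and strand setting were not stated, so overlapping genes and close paralogs may share reads.

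The counts were taken into edgeR 4.0.16 under R 4.3.3. Genes were kept by filterByExpr (minimum count 10) and scaled by TMM, which left 18979 of 21350 features. All 12 libraries entered 1 quasi-likelihood fit with 6 group terms (6 residual degrees of freedom), so that the other groups enter the spread and not the difference. The contrast OSR1 minus OSR2 was tested two-sided with Benjamini-Hochberg adjustment over all genes at 0.05, and the SE was taken from the F statistic. CPM use scaled library sizes. The common biological coefficient of variation was 0.128, and depth limits the precision of scarce genes only. Replicates differed beyond counting noise (chi-square per degree of freedom 88.3 in OSR1 and 27.5 in OSR2).

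Groups were said not to overlap where both libraries of one lay above both of the other in CPM. The 39 gene lists are described by counts and medians beside all genes, with no list test, and the members and lists were chosen with earlier results of these data known. After OSR1 and OSR2, the rule for named genes looked at genes that have a symbol, average 5 CPM or more in the 4 libraries and do not overlap between groups, and took the 12 with the smallest unadjusted p in each direction and up to 3 of each list with at least 4 measured members by size. All tested members of the 3 cartilage lists could be named, and other genes are said to be chosen later. Some genes that the rule takes are not reported here. Figures were drawn with matplotlib 3.10.9.

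Alternatives were DESeq2 1.42.0, its size factors, library totals, no low-count filter, fits without Control or of the 4 libraries alone, the replicate number as a block, thinned counts and leaving out each library. In tests on simulated counts, drawn with the same spread per gene in every group, DESeq2 called more of the unchanged genes than edgeR did. The OSR1 and OSR2 replicates differed in spread, so those tests do not decide between the DESeq2 and edgeR calls on these libraries.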

Additional observations from a re-analysis of the deposited data

How the results depend on the processing

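Of the 25 alternatives to the count of 2 called genes, most left it at 2. It was 35 with DESeq2 on the 12 libraries, 13 with DESeq2 on the 4 OSR libraries, 107 with neither Control nor OSR1 replicate 1, and 2 to 109 when 1 library was left out (8 without OSR1 replicate 2, 4 without KLF2 replicate 1). The fits of the 4 libraries alone and of the 10 without Control gave 2, and so did every other scaling and filter. Replicate numbers share only a number in the labels (the deviations of OSR1 and OSR2 replicate 1 correlated across 11128 genes at r = 0.19). With the replicate number as a block 5 genes were called, adding MATN1, NRIP3 and GDF10, and 2 in the block fit of the 4 libraries alone. Leaving out 1 library moved the median of cartilage transcription factors from 0.40 to between 0.31 and 0.51 and of cartilage collagens from 0.73 to between 0.59 and 0.89, and the latter was 0.59 with neither Control nor OSR1 replicate 1. Neither of these medians reversed. Of 147 named genes, 5 with overlapping groups did, none past the test in any alternative. Between the fits without OSR1 replicate 2 and without OSR1 replicate 1, COL11A2 went from -0.39 to 1.35, CILP2 from -0.63 to 0.69, NDUFB7 from -1.74 to 1.21 and EMILIN1 from -1.64 to 0.86. CHADL lay near 0 and ranged from -0.20 to 0.19 with 1 library left out. It was 0.0085 with DESeq2, 0.0091 with median-of-ratios size factors, 0.0063 in the 4 libraries alone, 0.0040 with the replicate block, 0.00805 with the block in the 4 libraries alone, and 0.16 with neither Control nor OSR1 replicate 1. The block moved EMILIN1 to -0.00803, and the block in the 4 libraries alone moved EMILIN1 to -0.35 and NDUFB7 to -0.21. With median-of-ratios size factors the genes whose groups did not overlap were 2794 toward OSR1 (14.7%) and 2049 toward OSR2 (10.8%), so the even split over all genes rests on the scaling, which moved the median of all genes from -0.01 to 0.01. The adjusted p ranged from 1.2e-08 to 1 for MATN1 and from 0.0005 to 1 for COL9A1. The robust prior, the fit with legacy off, DESeq2 on the 4 libraries and the fit with neither Control nor OSR1 replicate 1 were chosen after seeing the data.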

Other observations

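Connective tissue genes outside cartilage and elastic fibres differed by small amounts between OSR1 and OSR2 libraries. Of 29 fibrous and loose connective tissue genes tested, both OSR1 libraries lay above in 4 (12.2% of all genes) and both OSR2 libraries in 7 (13.2%), with a median log2 difference of -0.06. COL8A2, a short-chain collagen, lay at 499.98 and 501 CPM in OSR1 and at 353 and 409 CPM in OSR2 (0.39, SE 0.14), whereas FN1, which encodes fibronectin, lay at 9216 and 10029.8 CPM against 10834 and 12227 CPM (-0.26, SE 0.17). Of 17 tendon genes tested, 4 had both OSR1 libraries above (12.2% of all genes) and 1 both OSR2 libraries (13.2%). THBS4, a thrombospondin of tendon matrix, lay at 387 and 299.9 CPM against 280.4 and 293 CPM (0.26, SE 0.11), and the gap between the lower OSR1 and the higher OSR2 library was narrow. None of these genes passed the adjusted test in edgeR or DESeq2.

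Extracellular regulators of WNT signalling and a Notch target gave differences of like size. FRZB, a secreted WNT antagonist of cartilage, lay at 563 and 459.6 CPM in OSR1 and at 443 and 397 CPM in OSR2 (0.28, SE 0.10). The ligand WNT11 lay at 200.3 and 209 CPM against 251 and 234 CPM (-0.25, SE 0.12), and HEY1, a Notch target, at 27.4 and 22.1 CPM against 19.0 and 20.4 CPM (0.33, SE 0.11). ADM, which encodes the hypoxia-inducible peptide adrenomedullin, lay at 12.6 and 17.7 CPM against 21.6 and 21.7 CPM (-0.52, SE 0.21). No edgeR adjusted p of these 4 genes was below 0.92.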
